A study of Mus musculus with 18 samples.

Results

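Both arms of 2 little studied mouse miRNA hairpins, mmu-miR-6540-5p, mmu-miR-6540-3p, mmu-miR-3099-3p and mmu-miR-3099-5p, were followed across normal adrenal glands and neuroblastoma tumors. They are 4 of the 1966 mature miRNAs in the deposited table and were found there by name. The 4 were chosen on the measured difference between tumors and adrenal glands, because mmu-miR-6540-5p and mmu-miR-3099-3p stood near the top of it, so values against adrenal glands describe the choice and carry no test. When miRNAs whose mean reached 10 CPM were ordered by the smaller of their 2 tumor differences on the log2(CPM + 1) scale, mmu-miR-6540-5p stood at place 2 with 5.50 and mmu-miR-3099-3p at place 5 with 4.19. The next miRNA, outside the choice, was miR-344b-3p with 4.03. Of the 4, 3 had at least 1 CPM in at least 3 libraries and entered the fit across all miRNAs, and mmu-miR-3099-5p did not.

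Small RNA was sequenced from 3 adrenal glands labelled CRE -, wildtype in the study, called AG. The tumors were 7 from R26 IGF2BP1 mice, called TI, and 8 from mice with both transgenes, R26 IGF2BP1/MYCN, called TIM. Tumor mice carried Cre under control of Dbh, the gene of the noradrenaline-producing enzyme, so the transgenes were switched on in adrenal glands and sympathetic nerves. TI mice carried an IGF2BP1 transgene without its 3′UTR at the Rosa26 locus, labelled +/+ in all but 1 tumor, which was +/-, and TIM mice are labelled IMP1/MYCN, where IMP1 is another name of IGF2BP1. The mice were of a C57Bl6/N background, and their ages are not given in the labels. The labels place 1 TI and 2 TIM tumors in the adrenal gland and 1 TIM tumor at the spine, but the table's columns name only the group, so libraries are numbered here within each group by their order in the table and cannot be tied to a site, a genotype or a mouse. The labels do not say whether tumors of a group came from separate mice, and a mouse of the study could bear more than 1 tumor, so libraries may share a mouse. The p-values therefore measure the spread between these samples, which may in part be technical.

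Libraries held 21644743 to 23332704 reads on miRNAs in AG, 11802837 to 21268124 in TI and 11641696 to 23435621 in TIM. The unit, CPM, gives reads relative to the library's total after this total is multiplied by a scaling factor (TMM), which ran from 0.700 to 1.85. Against AG, 7 of the 11 neuron-enriched miRNAs of a marker list were higher in TI by limma at an adjusted p under 0.05, 7 were higher in TIM, and 0 were lower. Across all 726 miRNAs tested, 26.4% were higher and 29.3% lower in TI, and 25.5% were higher and 25.9% lower in TIM. The list's median difference was 1.89 (log2) in TI and 1.88 in TIM, and that of all miRNAs was -0.01 and 0.18. Both endothelial miRNAs of a second list, miR-126a-3p and miR-126a-5p, were lower in both tumor types. Of 5 miRNAs of smooth muscle and stroma, 4 were lower in TI and 4 in TIM, 3 of them in both. Of 6 leukocyte miRNAs, 3 were lower in TI and 4 in TIM. No miRNA of these 4 lists was at 0 in any library. In whole tissue, fewer cells of a type and less RNA per cell cannot be told apart, and the part of such differences in the levels given here was not tested.

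A miRNA is cut from a hairpin in a longer transcript by Drosha and Dicer, and either arm of the hairpin, 5p or 3p, can be loaded into an Argonaute protein. Bases 2 to 8 of the loaded strand, the seed, pair with target mRNAs. Many miRNA hairpins lie in introns of protein-coding genes and are made from the same primary transcript as their host. The hairpins are shown first because the results turn on which arm was read. The RefSeq table for GRCm38.p6, the patch release of the authors' build mm10, held 2 of 2 hairpins and 3 of 4 mature sequences, and mmu-miR-6540-5p is named only. Capitals in the hairpins mark the mature sequences listed in that table.

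Mir6540 hairpin, chr16:42303362-42303469, minus strand: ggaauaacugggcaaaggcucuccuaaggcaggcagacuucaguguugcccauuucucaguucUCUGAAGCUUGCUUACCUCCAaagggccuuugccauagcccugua
Mir3099 hairpin, chr7:6803587-6803670, plus strand: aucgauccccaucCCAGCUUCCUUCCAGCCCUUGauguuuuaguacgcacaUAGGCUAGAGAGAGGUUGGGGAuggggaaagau

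In the mature sequences below, written 5′ to 3′, capitals mark the seed.

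mmu-miR-6540-3p, chr16:42303386-42303406: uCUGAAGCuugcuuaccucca
mmu-miR-3099-3p, chr7:6803638-6803659: uAGGCUAGagagagguugggga
mmu-miR-3099-5p, chr7:6803600-6803620: cCAGCUUCcuuccagcccuug

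The seeds of these 3 differ from each other, and among the 1679 mature miRNAs compared, 0 others share bases 2 to 8 with any of them. With bases 2 to 7 alone, mmu-miR-6540-3p matched miR-7049-5p and miR-7094-1-5p, and mmu-miR-3099-5p matched miR-693-3p. These 3 had at most 0.907 CPM in any library. The sequences of mmu-miR-3099-3p and mmu-miR-6540-3p each occur exactly 1 time in the GRCm39 genome, within their own hairpins. That of mmu-miR-3099-5p occurs 2 times, 1 of them in its hairpin, so its few reads cannot be tied to this hairpin alone. For mmu-miR-6540-5p, whose sequence is not given here, genome matches were not counted. Whether its reads come from the Mir6540 hairpin alone was not tested.

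The Mir6540 hairpin lies in Gap43 (chr16:42248552-42340651 of GRCm38.p6), which encodes growth-associated protein 43 of neuronal growth cones and axons. In GENCODE annotation of GRCm39 it is on the strand of the gene and in intron 1 of all 7 Gap43 transcripts that span it, in none of them in an exon. It begins 37.0 kb after the first exon and well before the next one, in an intron of 48.1 kb or more. The Mir3099 hairpin lies in Usp29 (chr7:6730559-6967220 of GRCm38.p6), a ubiquitin-specific protease gene of the imprinted Peg3 domain that is expressed from the paternal allele. It too is on the strand of its host and intronic in both transcripts that span it, in intron 2 of the first and intron 3 of the second, which are 189 and 169 kb long. No other miRNA hairpin of the table lies within 10 kb of either, and the nearest are Mir568 at 1337 kb and Mir5620 at 495 kb. The mRNA levels of Gap43 and Usp29 were not analysed here. From its own RNA-seq, the paper names Gap43 as an example of neural markers that were elevated in TI and TIM tumors. Whether the miR-6540 level follows that of its host was not tested.

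**Figure D1:**
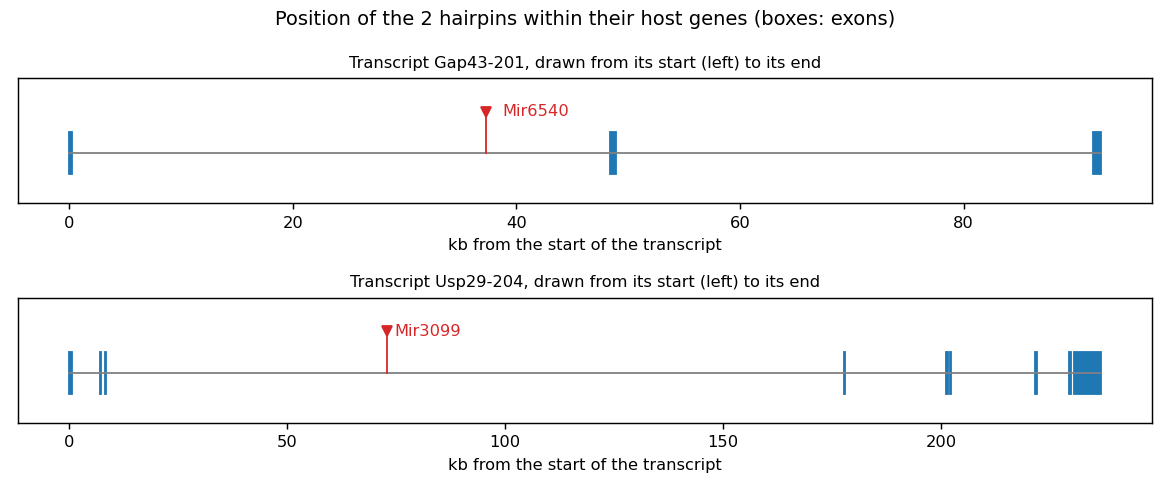
Exons (blue boxes, widened to at least 0.3 kb) of 1 annotated transcript of Gap43 (top) and of Usp29 (bottom) along the distance from the transcript's start in kb, with the hairpins Mir6540 and Mir3099 marked in red. Both hairpins lie inside long introns, far from the neighbouring exons.

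The more abundant arm of miR-6540 was the 5p arm. In AG, mmu-miR-6540-5p had 0.231, 0.793 and 0.972 CPM, from 5, 17 and 21 reads. In TI it ran from 2.46 to 260 CPM with a median of 85.8, and in TIM from 99.4 to 404 CPM with a median of 172. All 7 TI and all 8 TIM libraries lay above the highest AG library, although 1 of them, TI-5, only by 2.53 times. Such a separation was seen for 22% of the 726 miRNAs tested in TI and for 21.1% in TIM, and for this member it follows from the choice. AG averaged 0.665 ± 0.386 CPM (SD, n = 3). TI averaged 119 ± 85.4 CPM (SD, n = 7), 178 times the AG mean, and TIM averaged 199 ± 107 CPM (SD, n = 8), 299 times the AG mean. On the log2(CPM + 1) scale the difference from AG was 5.50 (standard error 0.90) in TI and 6.77 (standard error 0.88) in TIM. This scale understates the change of a miRNA that is near 0 in AG. By abundance, mmu-miR-6540-5p moved from a median place of 601 in AG to 196 in TI and 152.5 in TIM.

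Library TI-5 was the lowest of TI in both arms of miR-6540. It held 46 reads of mmu-miR-6540-5p (2.46 CPM), while the lowest of the other 6 had 66.0 CPM. Without it the TI mean was 138 ± 74.9 CPM (SD, n = 6), the ratio to AG 207, and the log2 difference from AG 6.24. Some other values of TI-5 were also at the edge of the group. It had the smallest share of reads on miR-148a-3p, 2.29%, against 30.1% to 61.9% in the other TI libraries, and 4.19% to 6.94% in AG. The summed CPM of the 5 smooth muscle and stroma miRNAs was 171667 in TI-5, against 16134 to 88188 in the other TI libraries and 124324 to 210988 in AG. This sum was nearly all miR-143-3p, with 170636 CPM in TI-5. Of the other 4, miR-145a-5p was also highest of TI there, with 495 CPM, while miR-199a-3p and miR-199a-5p, with 312 and 183 CPM, were at the TI medians. The sums of the 2 endothelial miRNAs (6736 against 1704 to 5226), of the 3 erythroid miRNAs (3721 against 227 to 1716) and of 3 neuroendocrine miRNAs (271810 against 28860 to 156411) were the highest of TI there too. TI-5 lay below the AG range of the endothelial sum, 38529 to 46092. It lay above the AG ranges of the erythroid sum, 536 to 1942, and of the neuroendocrine sum, 49424 to 116747. The neuron-enriched sum of TI-5, 92676, lay within the range of the other TI libraries, 50360 to 94566, and above the AG range of 4960 to 12266. It was carried by miR-218-5p (72078 CPM) and miR-129-5p (14570 CPM), whereas TI-5 was the lowest TI library for 5 of the 11 neuron-enriched miRNAs. These 5 were miR-124-3p (34.1 CPM against a TI median of 210), miR-9-5p, miR-9-3p, miR-137-3p and miR-138-5p. Sums of the remaining lists lay within the range of the other TI libraries. They were 386 (273 to 1372) for leukocyte, 954 (354 to 1952) for epithelial and 145 (46.6 to 344) for skeletal muscle miRNAs. For the liver miRNA miR-122-5p it was 17.2 (4.68 to 48.1). Each lay below its AG range, 654 to 1039, 1236 to 1762, 175 to 207 and 780 to 2592 in the same order. The part of all these features in the low miR-6540 level of TI-5 was not tested.

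The 3p arm was far scarcer. For mmu-miR-6540-3p, AG libraries had 1, 2 and 0 reads (0.0462, 0.0932 and 0 CPM), all at or under the level of 3 reads. TI libraries ran from 0.321 to 11.04 CPM with a median of 5.17, and TIM libraries from 3.94 to 13.2 CPM with a median of 7.80. No tumor library overlapped AG, as for 22% of the 726 miRNAs tested in TI and 21.1% in TIM. TI-5 was again lowest, with 6 reads. Since the AG reads sum to 3, the ratio of pooled reads, scaled to the libraries' totals, to AG was uncertain: 122 in TI (95% interval 41.5 to 592) and 180 in TIM (95% interval 61.6 to 876), where the intervals cover counting error only. The log2(CPM + 1) difference from AG was 2.44 (standard error 0.51) in TI and 3.06 (standard error 0.50) in TIM, far below those ratios because the pseudocount of 1 CPM exceeds the AG values many times.

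For miR-3099 the 3p arm carried the signal. In AG, mmu-miR-3099-3p had 2.91, 7.60 and 7.13 CPM, well above the level of 3 reads. In TI it ran from 59.8 to 305 CPM with a median of 113, and in TIM from 89.6 to 426 CPM with a median of 116. Every tumor library was above every AG library, the lowest TI library by 7.87 times and the lowest TIM library by 11.8 times. Of the 726 miRNAs tested, 22% were so separated in TI and 21.1% in TIM, and for this member too it follows from the choice. AG averaged 5.88 ± 2.58 CPM (SD, n = 3). TI averaged 136 ± 85.6 CPM (SD, n = 7), 23.1 times the AG mean, and TIM averaged 163 ± 115 CPM (SD, n = 8), 27.8 times the AG mean. The log2(CPM + 1) difference from AG was 4.19 (standard error 0.52) in TI and 4.44 (standard error 0.51) in TIM. The highest TIM value belonged to TIM-2, and without it the TIM mean was 126 ± 46.6 CPM (SD, n = 7) and the highest value 207 CPM. TI-5 had the lowest TI level here as well, 59.8 CPM, but TI-7 was close to it with 64.9 CPM.

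The other arm of miR-3099 was almost absent. mmu-miR-3099-5p had 0 reads in all 3 AG libraries, 6 reads over the 7 TI libraries and 9 over the 8 TIM libraries. The highest TI library, TI-3, had 3 reads (0.264 CPM), and the highest TIM library, TIM-2, had 6 reads (0.202 CPM). It was therefore not detectable in AG at this depth, where 3 reads equal 0.139 to 0.140 CPM, and 14 of the 15 tumor libraries were at or under 3 reads. No fold change is given for it.

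**Figure D2:**
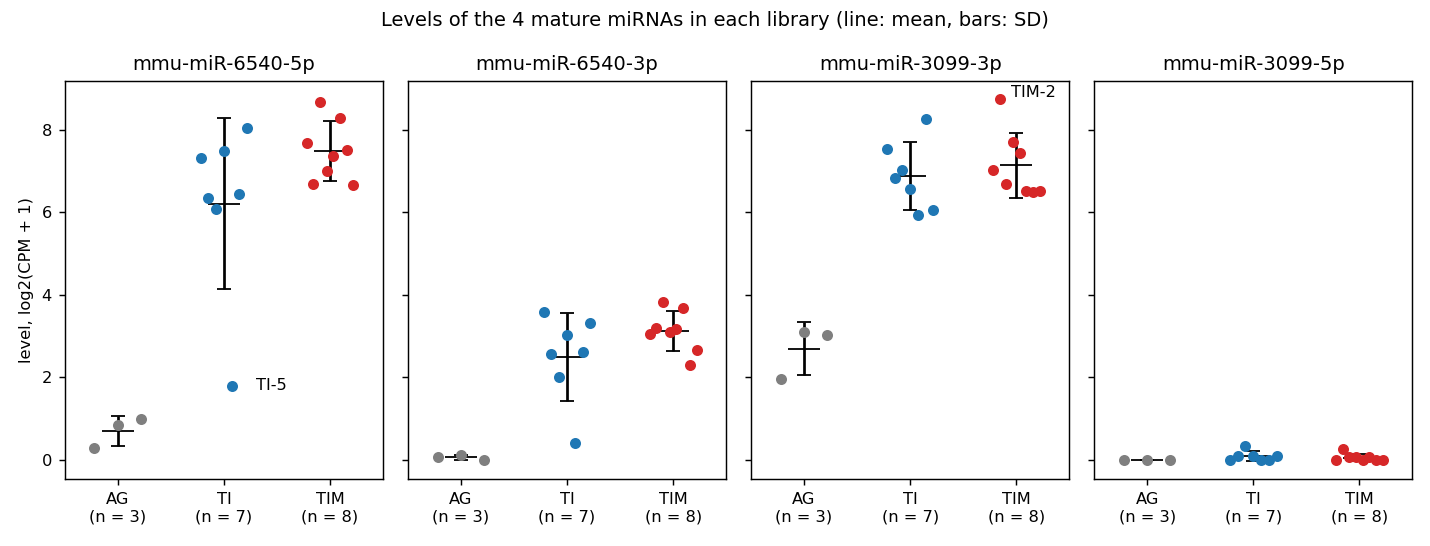
Level of each of the 4 mature miRNAs, as log2(CPM + 1), in AG (grey, n = 3), TI (blue, n = 7) and TIM (red, n = 8), with 1 point per library, the mean as a line and the SD as bars. mmu-miR-6540-5p, mmu-miR-6540-3p and mmu-miR-3099-3p lie above AG in all tumor libraries, TI-5 is the lowest tumor library for both arms of miR-6540, and mmu-miR-3099-5p stays near 0 throughout.

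TIM was compared with TI, a contrast that the choice of the members did not use. Besides the MYCN transgene, the groups differ in IGF2BP1 alleles. All but 1 of the TI tumors are labelled +/+, while in TIM mice both transgenes sit at the Rosa26 locus. The paper also reports shorter survival and tumors at more sites in mice with both transgenes, so age and site may differ too. The part of each of these cannot be told apart. None of the 3 members tested passed. By limma across 726 miRNAs, of which 5.23% passed between TIM and TI, 0 of 3 members had an adjusted p under 0.05 and 0 had an unadjusted p under 0.05, as 165 of the 726 miRNAs did. Both counts were also 0 with edgeR and with DESeq2 on recovered reads. Among all miRNAs, 3 passed at an adjusted p under 0.05 with edgeR and 123 with DESeq2. With 1 library left out, the unadjusted limma p of mmu-miR-6540-5p fell under 0.05 without TI-4 (0.0477, adjusted p 0.225) and without TI-7 (0.0319, adjusted p 0.141), and that of mmu-miR-6540-3p without TI-1 (0.0493, adjusted p 0.226). The intervals are wide and do not show that the tumor types have the same level.

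For mmu-miR-6540-5p the TIM minus TI difference was 1.27 on the log2 scale (standard error 0.67, 95% interval -0.14 to 2.68, limma adjusted p = 0.274). The ranges overlapped, with 2 of 8 TIM libraries above the highest TI library and 4 of 7 TI libraries below the lowest TIM library. Leaving out TI-5 reduced the difference to 0.53 (limma adjusted p = 0.394). For mmu-miR-6540-3p the difference was 0.62 (standard error 0.38, 95% interval -0.18 to 1.42, limma adjusted p = 0.352), with 2 TIM libraries above and 2 TI libraries below the range of the other tumor type. Without TI-5 it was 0.27 (limma adjusted p = 0.606). For mmu-miR-3099-3p it was 0.26 (standard error 0.39, 95% interval -0.57 to 1.08, limma adjusted p = 0.774), and 7 of 8 TIM libraries lay within the TI range. Without TIM-2 this difference was 0.027 (limma adjusted p = 0.976). TI and TIM thus did not differ beyond their spread for these 3 members. AG had the lowest levels, but that is the contrast on which the members were chosen.

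The scaling of the libraries bears on this contrast. With CPM computed without the TMM factor the median TIM minus TI difference of all miRNAs moved from 0.06 to 0.49, and the differences of mmu-miR-6540-5p and mmu-miR-6540-3p rose to 1.82 and 1.11. Their unadjusted p then lay under 0.05, while the limma adjusted p was 0.0651 and 0.0682.

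**Figure D3:**
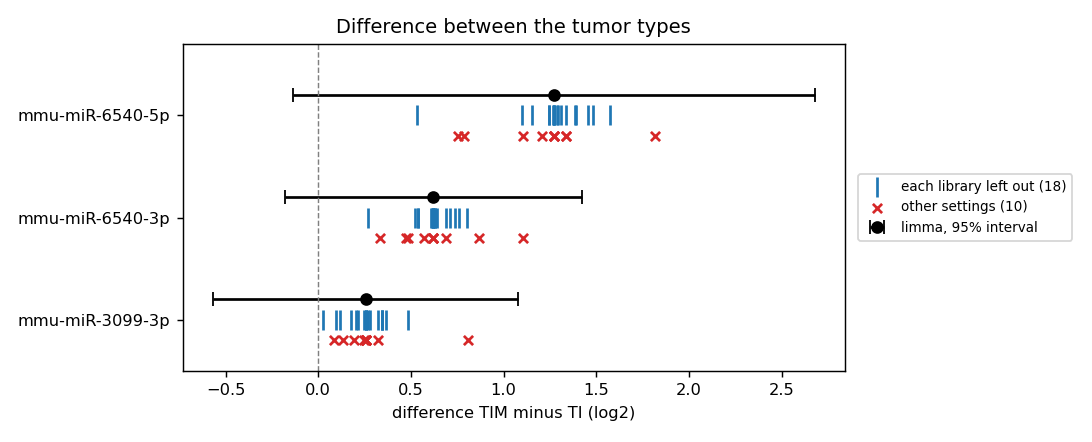
TIM minus TI difference (log2) of the 3 members tested, from limma with its 95% interval (black), with each of the 18 libraries left out in turn (blue ticks) and under 10 other settings (red crosses). All 3 intervals include 0, and the lowest tick of mmu-miR-6540-5p, at 0.53, is the fit without TI-5.

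The balance of the arms was examined on the reads of each hairpin. Of the reads on either arm of miR-6540, the 5p arm took 83.3% to 100% in AG, 88.5% to 96.6% in TI and 92.6% to 97.9% in TIM. Pooled within groups it took 93.5% (43 of 46 reads, exact 95% interval 82.1% to 98.6%) in AG, 95.4% (exact 95% interval 94.999% to 95.743%) in TI and 96.0% (exact 95% interval 95.755% to 96.163%) in TIM. These intervals cover counting error only and leave out the spread between tumors, so they do not compare TI with TIM. The AG interval holds both tumor values. The 5p arm thus dominated in each group, also in AG, where only 6 to 21 reads per library bear on it.

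Between single tumors the arm ratio varied more than the share makes visible. TI libraries had 7.67 to 28.8 reads of the 5p arm per 3p read and TIM libraries 12.5 to 46.2. The lowest TI value was that of TI-5 and rests on 6 reads of the 3p arm, and the lowest TIM value was that of TIM-2, with 243. On the log2 scale of CPM + 1 the ratio averaged 3.71 ± 1.09 (SD, n = 7) for the TI tumors. For the TIM tumors it averaged 4.36 ± 0.56 (SD, n = 8). This difference of 0.65 was within the spread (exact permutation test over 6435 arrangements, two-sided, p = 0.162, adjusted over the 2 hairpins 0.324), and it was 0.26 without TI-5 (exact permutation p = 0.347). The smallest p that this test allows is 0.000311. The added 1 CPM lowers the ratio where the 3p arm is scarce, so the ratio depends in part on level, and TI-5 entered as 1.39. With a pseudocount of 0.1 CPM the difference was 0.47 (exact permutation p = 0.203).

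**Figure D4:**
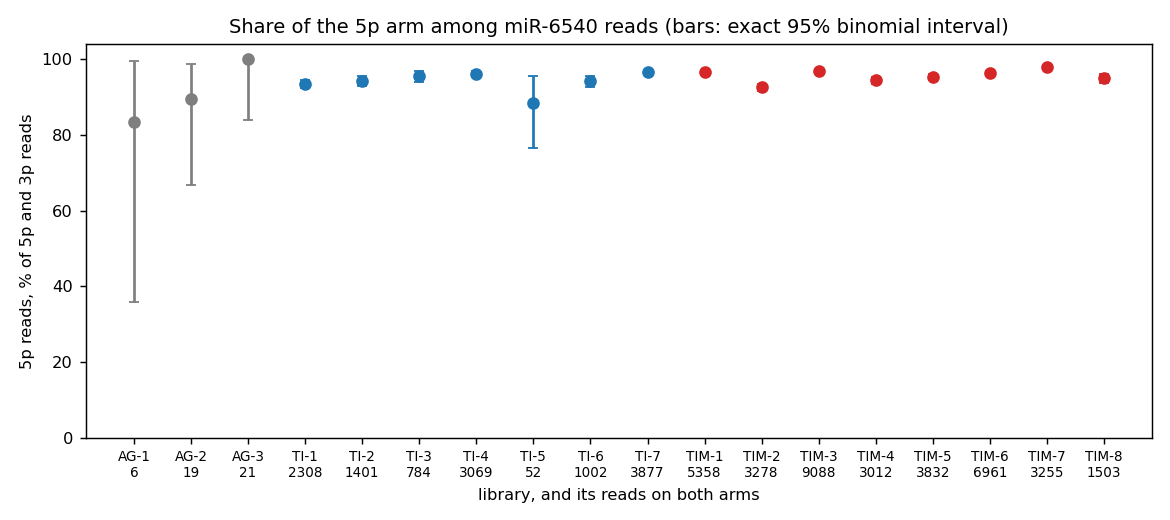
Share of the 5p arm among the reads on both arms of miR-6540 in each library, in %, with exact 95% binomial intervals, for AG (grey), TI (blue) and TIM (red), and under each library its reads on both arms. The share is above 80% in all 18 libraries, with wide intervals in AG and in TI-5, which hold between 6 and 52 reads.

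For miR-3099 the 5p arm took 0.0468% of the reads on both arms in TI (6 of 12827, exact 95% interval 0.0172% to 0.102%) and 0.0286% in TIM (9 of 31475, exact 95% interval 0.0131% to 0.0543%). In AG it took 0 of 380 reads, where 3 reads would be a share of 0.789% and the exact 95% interval reaches 0.966%. The log2 ratio of the arms differed between TIM and TI by -0.28 (exact permutation test, two-sided, p = 0.494, adjusted over the 2 hairpins 0.494). With so few 5p reads this ratio mirrors the level of mmu-miR-3099-3p. The 2 hairpins therefore had most reads on opposite arms in all 18 libraries, the 5p arm for miR-6540 and the 3p arm for miR-3099. In AG-1 the 5p share of miR-6540 rests on 6 reads, with an exact 95% interval of 35.9% to 99.6%.

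The arms of miR-6540 varied together over the tumors, while the 2 hairpins did not. Over the 15 tumor libraries, Pearson's r of mmu-miR-6540-5p and mmu-miR-6540-3p on the log2(CPM + 1) scale was 0.92, and 0.76 without TI-5. It was 0.96 within TI (n = 7) and 0.63 within TIM (n = 8). Between mmu-miR-6540-5p and mmu-miR-3099-3p it was 0.14 over 15 tumors, which turned to -0.48 without TI-5. TIM-3 had the highest mmu-miR-6540-5p level and 102 CPM of mmu-miR-3099-3p, whereas TIM-2 had the highest mmu-miR-3099-3p level and 102 CPM of mmu-miR-6540-5p. These correlations are descriptions over libraries that share a scaling, and both arms of a hairpin come from 1 library preparation.

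**Figure D5:**
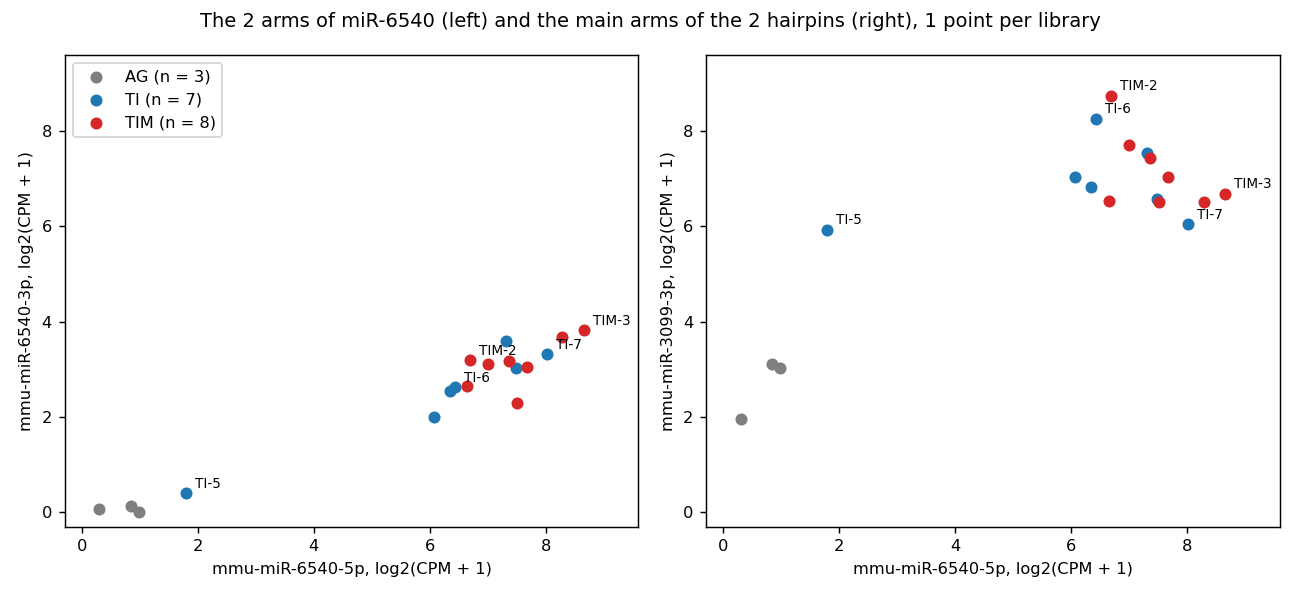
Left, the 2 arms of miR-6540 against each other. Right, mmu-miR-3099-3p against mmu-miR-6540-5p. Axes are log2(CPM + 1), with 1 point per library of AG (grey, n = 3), TI (blue, n = 7) and TIM (red, n = 8). The arms of miR-6540 lie along 1 line from AG over TI-5 to the other tumors, while on the right TI-5 has a tumor level of mmu-miR-3099-3p beside a mmu-miR-6540-5p level near that of AG.

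The miRNAs whose levels over the 15 tumors were most like those of mmu-miR-6540-5p were miR-344f-3p (r = 0.90), miR-672-5p (0.82), miR-331-5p (0.82), miR-704 (0.81) and miR-7021-5p (0.80). Much of this list rests on TI-5, since without it r fell to 0.46 for miR-344f-3p and 0.13 for miR-672-5p. For miR-331-5p and miR-704 it was 0.84 and 0.90 without TI-5, and these were the 2 of the 5 that stayed among the first 5. In TI-5, miR-672-5p had 3.95 CPM against a TI mean of 131, and miR-344f-3p had 32.6 CPM against 207. The level of miR-7021-5p was near the floor, with means of 0.767 CPM in TI and 1.14 in TIM and 0.0534 CPM in TI-5. Its r was 0.62 without TI-5. With Spearman's correlation in place of Pearson's, only miR-704 of the 5 stayed among the first 5. The list was drawn from 723 miRNAs compared.

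Most like mmu-miR-3099-3p over the same 15 libraries were let-7g-3p (r = 0.75), miR-124-3p (0.75), miR-193b-3p (0.73), miR-1839-3p (0.73) and miR-346-5p (0.72). These are the 5 highest of 724 miRNAs compared, of which 0 had r above 0.8. Levels of let-7g-3p were low, with means of 1.65 CPM in TI and 2.12 in TIM. Which miRNA came first changed with the library left out. The brain miRNA miR-124-3p, which marks neurons, had 4.72 CPM on average in AG, 212 in TI and 242 in TIM. By contrast, miR-193b-3p had 89.8 CPM in AG, 11.03 in TI and 25.7 in TIM, so that its likeness holds among tumors and not against AG. Over all 18 libraries r was 0.93 for miR-124-3p and -0.44 for miR-193b-3p, and of the 5 only miR-124-3p stayed among the first 5. This r includes the gap between AG and tumors, on which mmu-miR-3099-3p was chosen. In the order used for that choice, miR-124-3p stood at place 3, so its high r over 18 libraries follows in large part from the choice. Without TI-5 it was only miR-1839-3p that stayed.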

How the data were processed

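Small RNA reads of 18 libraries had been trimmed with cutadapt 2.8, aligned to mm10 with Bowtie2 2.3.5.1, counted with featureCounts 2.0.0 and normalized with edgeR 3.40 by the authors, as the paper and the submitters' processing notes name these tools. The deposited signal is CPM on totals multiplied by TMM factors. Columns with log2 fold changes, p-values and FDRs of the authors' own comparisons were left unused. How reads with several matches were treated is not given in the sources used here.

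All values (100%, within 0.01 reads) were whole multiples of 1 read, from which reads were recovered. Precision follows from the totals, with 3 reads equal to 0.101 to 0.272 CPM, and intervals cover counting error only. No 2 libraries of a group were identical (52 pairs). limma 3.58.1 (lmFit, eBayes with trend, R 4.3.3) was fitted to log2(CPM + 1) of 726 of the 1966 miRNAs, those that reached 1 CPM in 3 or more libraries. One model held the 18 libraries, and p-values were adjusted by Benjamini-Hochberg with a threshold of 0.05. Arm ratios were compared by exact permutation in Python 3.11.15. The fits across miRNAs were tested on simulated data.

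Members, marker lists and tests were chosen with earlier results of these data known. Named miRNAs were the 4 members, the 5 most correlated with each main arm (other arm of the hairpin left out), those sharing a seed, those within 10 kb, and examples from marker lists. The miRNAs sharing only bases 2 to 7 and the libraries TI-5 and TIM-2 were singled out after values were seen. Alternatives were pseudocounts of 0.1 and 5 CPM, no filter, a filter of 10 CPM, 3 other scalings, only 2 groups in the model, edgeR 4.0.16 and DESeq2 1.42.0 on recovered reads, and each library left out.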

Additional observations from a re-analysis of the deposited data

Results flagged for a closer look

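In 24 comparisons over 12 groups of libraries, 4 values lay far from the rest of their group by Dixon's ratio, the gap to the nearest library divided by the range of the group, and chance gives about 1 such group in 20. For mmu-miR-6540-5p in TI the low library was TI-5, with a ratio of 0.686. For the log2 5p to 3p ratio of miR-6540 it was TI-5 again, with 0.704, on 6 reads of the 3p arm. From the reads without a pseudocount, an alternative chosen after seeing the data, this value was 0.470, under the critical value of 0.568. For mmu-miR-3099-5p the high libraries were TI-3 in TI, with 0.714 on 3 reads, and TIM-2 in TIM, with 0.753 on 6 reads.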

How the results depend on the processing

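The count of members that passed between TIM and TI was 0 in all 28 alternatives, and 0 results changed direction. Among all miRNAs, the number that passed ran from 3 with edgeR to 155 without the TMM factor. Where few miRNAs passed, a count of 0 among 3 members says little. With 1 library left out, the TIM minus TI difference ran from 0.53 to 1.57 for mmu-miR-6540-5p, from 0.27 to 0.80 for mmu-miR-6540-3p and from 0.027 to 0.48 for mmu-miR-3099-3p, with limma adjusted p from 0.141 to 0.976. Differences from AG, which carry no test, moved by more than the spread for miR-6540 alone. For mmu-miR-6540-5p, the TI minus AG difference was 7.40 with edgeR and 7.45 with DESeq2, and that of TIM minus AG 8.16 and 8.23, and 8.02 and 5.01 with pseudocounts of 0.1 and 5 CPM. For mmu-miR-6540-3p the same 4 settings (edgeR, DESeq2, 0.1 and 5 CPM) gave 6.78, 6.96, 4.91 and 1.02 in TI and 7.25, 7.44, 5.78 and 1.35 in TIM, and leaving miR-148a-3p out of the totals gave 3.61 in TIM. The 43 and 3 AG reads of the 2 arms limit these values. No paired analysis was possible because the groups are mice of different genotypes and replicate numbers are missing from the names of the columns. As mmu-miR-3099-5p was below the filter, its only alternative fit was that without a filter.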
